A study of Homo sapiens with 36 samples.

Results

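LNCaP cells kept for 72 h with 1 µM AU2-94 were compared with vehicle-treated cells of the same time point. The members were taken from the sample labels (agent, dose and treatment time) and came to 6 of the 36 RNA-seq libraries of the series, with 3 libraries in each group. LNCaP is an established human prostate cancer cell line, derived from a lymph node metastasis, that responds to androgens. The treated group received AU2-94 at 1 µM for 72 h, and the control group received vehicle for 72 h. The labels of the vehicle libraries also carry a dose of 2 µM, and do not say what it refers to. Both groups were LNCaP cells seeded in wells of the same density, with no genetic change and no other agent named, so the data describe 1 cell line in culture. The study set AU2-94, a CDK4-selective inhibitor known here by its code name, beside atirmociclib and ribociclib in the same cells. Used for comparison were AU2-94 at 2 µM and atirmociclib at 1 µM for 72 h, and AU2-94 at 1 µM and vehicle for 24 h, each with 3 libraries. The 72 h wells were seeded at a lower density than the 24 h wells, so treatment time and seeding density cannot be told apart.

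CDK4 and its relative CDK6 are kinases that act with D-type cyclins in G1 phase. They phosphorylate the retinoblastoma protein RB, which otherwise holds E2F transcription factors inactive at the promoters of genes for DNA synthesis. A later wave of genes, needed for mitosis, is transcribed through the MuvB complex with the factors B-MYB (MYBL2) and FOXM1, often at promoters with a short element called the cell cycle homology region. In LNCaP cells androgens separately induce secretory genes such as KLK3, which encodes prostate-specific antigen.

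The comparison asked which transcripts differed after 72 h of AU2-94 at 1 µM. Values are normalised counts, that is, a signal per gene after the authors' normalisation. Whether they are corrected for gene length is not given in the sources used here, so levels are compared only within a gene. Changes are log2 fold changes of AU2-94 over vehicle on the scale of log2(normalised count + 1), where 1 is 2-fold. Of 16341 genes tested with limma, 573 (3.51%) were called higher and 142 (0.869%) were called lower, where a call required an adjusted p no larger than 0.05 together with a change of 1 or more on the log2 scale in either direction. By the adjusted p alone, 2523 genes (15.4%) were higher and 2771 (17.0%) were lower, and this is what "rose" and "fell" mean below. The median change over all genes was 0.0006. Most of the significant changes were therefore smaller than 2-fold, and among changes of at least 2-fold the higher genes outnumbered the lower ones. The split depended on scaling: lower genes were 19.9% of those called, and 37.7% after quantile normalisation (370 higher and 224 lower).

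The genes called higher were mostly of low level. The median of their mean counts was 32.0, and 357 of the 573 had a mean under 50, 169 had a mean of 50 to 500 and 47 had at least 500. Long non-coding RNAs made up 29.3% of the genes called higher and 25.4% of those called lower, beside 19.8% of the genes not called. In 39 of the genes called higher, all 3 vehicle libraries were at or under 3 normalised counts, the floor below which a value is not read as expression, and their fitted changes depend on the pseudocount. The libraries of the groups did not overlap in 546 of the 573 higher and 134 of the 142 lower genes. The calls were made on these same libraries, so this separation follows largely from the selection and is no separate support. In bulk RNA, fewer cells with a transcript and less of it per cell cannot be told apart.

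**Figure D1:**
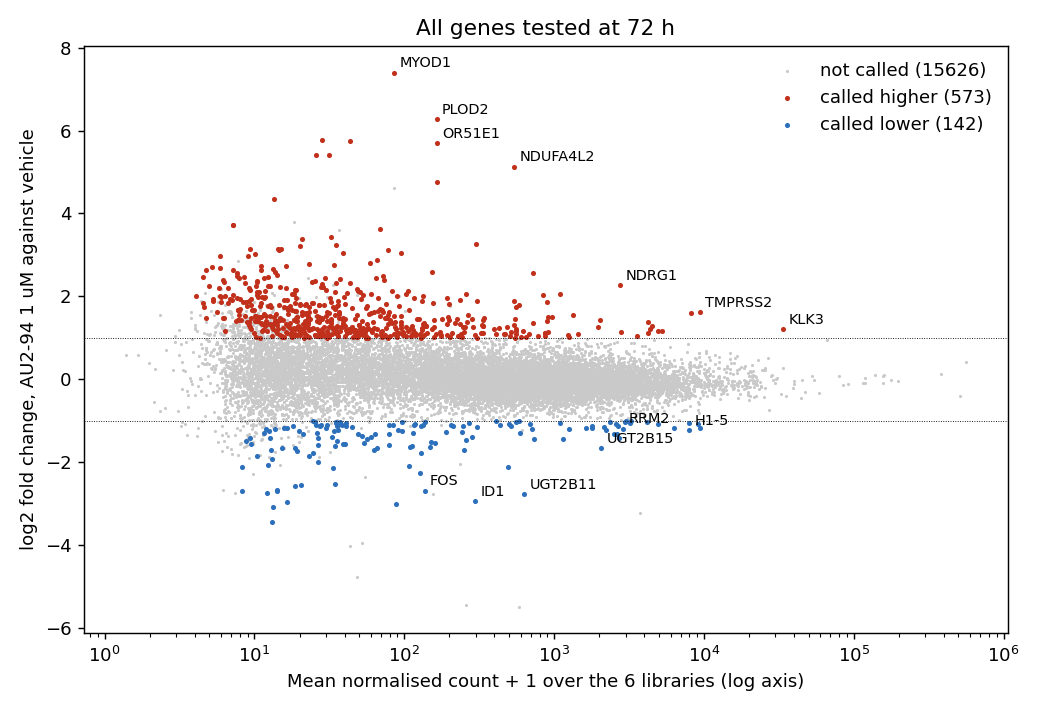
Each point is 1 of the 16341 genes, with its mean normalised count + 1 over the 6 libraries on a log axis and its log2 fold change, AU2-94 at 1 µM over vehicle at 72 h. Red marks the 573 genes called higher, blue the 142 called lower, and dotted lines the 2-fold limits; the higher calls crowd at low counts and KLK3 and TMPRSS2 stand out among abundant genes.

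The libraries resembled each other closely. Across genes, Pearson's r on the log2 scale was 0.983 to 0.985 between vehicle replicates, 0.982 to 0.984 between AU2-94 replicates and 0.971 to 0.974 between the groups. Luminal prostate markers were all detected (11 of 11 tested) and summed to 109568–112145 normalised counts in vehicle and 160643–161916 in AU2-94. Such a sum is weighted to the abundant genes, and the median log2 fold change of these markers was 0.21 (0.086 with the GC and length correction). Markers of other cell types stayed low. Basal markers summed to 65.9–142 in vehicle and 121–148 in AU2-94, with 2 of 6 tested and 1 that rose, the keratin KRT14. Fibroblast markers summed to 521–661 and 539–605 (3 of 8 tested, 0 past the test). Endothelial markers summed to 185–254 and 257–415, 5 of the 6 being at or under the floor in all 6 libraries and VWF, the remaining one, having risen by 0.62 (adjusted p = 0.0175), a call lost without AU2-94 replicate 2 or 3 or vehicle replicate 2 (adjusted p = 0.0516, 0.101 and 0.0833). Leukocyte markers summed to 51–92.9 and 68.9–128 (2 of 8 tested, 0 past the test). Mitochondrial transcripts took a mean 7.11% of the counts in vehicle and 7.30% in AU2-94 (two-sided exact permutation p = 0.5, where 0.1 is the smallest p that 3 against 3 allows; 4 such shares were compared), and the 10 most abundant genes of each library took 11.8% and 12.3% (exact permutation p = 0.2, Benjamini-Hochberg adjusted p = 0.267).

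The direct partners of the drug target changed little at the RNA level. CDK4 itself, chr12:57747727-57756013 on GRCh38, had 2265, 2590.0 and 2404 normalised counts in vehicle and 1900.2, 1985 and 2063 in AU2-94. All 3 treated libraries lay below the vehicle libraries, and the fall was small (log2 fold change -0.29 ± 0.06 (SE), adjusted p = 0.00213). An inhibitor acts on the kinase, so this value does not check that the target was inhibited. CDK6 was scarce, at 14.8, 16.2 and 18.96 and 14.1, 31.9 and 21.1, with overlapping groups (log2 fold change 0.34 ± 0.39 (SE), adjusted p = 0.548). CCND1, the gene of cyclin D1, had 7840.5, 8064 and 7657 in vehicle and 9973, 10089 and 9168 in AU2-94, a rise of 0.31 on the log2 scale (adjusted p = 7.42e-05). CCND3 moved the other way, having fallen from 954, 1008 and 1045 to 755, 715 and 771 (log2 fold change -0.42 ± 0.07 (SE), adjusted p = 0.000241). RB1 had 998, 1085 and 977 against 959, 999 and 964 and did not pass the test (adjusted p = 0.525), while its relative RBL2, a pocket protein of resting cells, rose from 2032, 2252 and 2073 to 2623, 2790.2 and 2611 (log2 fold change 0.34, adjusted p = 0.000257). In all, 2 of the 7 genes of this list rose, 2 fell, and 0 were called, while 15.4% of all genes rose and 17.0% fell.

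Of the 8 genes for CDK inhibitor proteins tested, 4 fell and 0 rose, beside 17.0% and 15.4% of all genes. CDKN2C, which encodes the CDK4/6 inhibitor p18, had 443, 373 and 446 normalised counts in vehicle and 185, 194 and 184 in AU2-94. The groups were far apart, and CDKN2C was the gene of this list that was called (log2 fold change -1.16 ± 0.13 (SE), adjusted p = 2.89e-06). CDKN1A, the gene of p21, fell from 2894, 3125 and 2810.0 to 2349.8, 2218 and 2167 (log2 fold change -0.39 ± 0.05 (SE), adjusted p = 2.33e-05). CDKN2A, the gene of p16 and ARF, fell as well (557, 443 and 578 to 375, 335 and 339.9, log2 fold change -0.58, adjusted p = 0.00105). CDKN1B, the gene of p27, had 1346, 1488 and 1412 against 1580.5, 1536 and 1483 and did not pass the test (log2 fold change 0.12 ± 0.06 (SE), adjusted p = 0.141).

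Genes for S phase and mitosis fell together but by modest amounts. Of the 55 DNA replication genes tested, 42 fell and 0 rose, with a median log2 fold change of -0.51 and 1 called, CDC45. The spindle, kinetochore and condensin genes fell in 47 of 50 cases (median -0.54), and the mitotic kinases and checkpoint genes in 27 of 31 (median -0.58). Among the G1/S regulators, 13 of 15 fell, and among the deoxynucleotide synthesis genes 11 of 13. The E2F, DP and MuvB transcription factors fell in 9 of 18 cases and the homologous recombination and Fanconi anaemia genes in 17 of 33, where 2 rose. These shares stand against 17.0% of all genes that fell.

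Within the G1/S group, E2F1, the activating E2F, had 1000.4, 1124 and 953 in vehicle and 598, 659 and 629.8 in AU2-94. No treated library reached the lowest vehicle library (log2 fold change -0.70 ± 0.07 (SE), adjusted p = 9.52e-07). The related E2F2 had a log2 fold change of -1.01 (from 602, 537 and 494 to 288, 309 and 219.6, adjusted p = 0.00011). CCNE2, a cyclin E gene, fell from 632, 543 and 485 to 368, 267 and 259.7 (log2 fold change -0.90 ± 0.20 (SE), adjusted p = 0.0019), whereas CCNE1 had 397, 518 and 484 and 378, 402 and 386 and missed the threshold (adjusted p = 0.0772, and 0.0159 without vehicle replicate 1). CDC25A, the phosphatase that removes inhibitory phosphates from CDK2, was called, with 854, 856 and 1123 in vehicle and 452, 488 and 397 in AU2-94 (log2 fold change -1.07 ± 0.12 (SE), adjusted p = 1.34e-06). Among enzymes of nucleotide supply, RRM2, a ribonucleotide reductase subunit, went from 4362, 3998 and 3624 to 1983, 1525 and 1751, which was the one called fall of its list (log2 fold change -1.19 ± 0.13 (SE), adjusted p = 1.04e-06). TYMS, thymidylate synthase, fell from 1955, 2178 and 2052 to 1037, 1155 and 1099 (log2 fold change -0.91), and TK1, thymidine kinase, from 2416, 2471 and 2431 to 1729, 1672 and 1557 (log2 fold change -0.56). The replication clamp PCNA fell from 3316, 3373 and 3219.7 to 1867, 1848 and 1903 (log2 fold change -0.82) and the helicase subunit MCM2 from 3506, 3921 and 3645 to 2503, 2613 and 2494 (log2 fold change -0.54).

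The proliferation and mitosis genes named here fell by less than 2-fold. MKI67, the gene of the Ki-67 antigen, had 9672, 9199 and 9766 normalised counts in vehicle and 5732, 5919.7 and 5618 in AU2-94. The groups did not overlap, with a log2 fold change of -0.73 ± 0.06 (SE), adjusted p = 1.74e-08. FOXM1 fell from 3664, 3559.9 and 3608 to 2028, 2024 and 2039.7 (log2 fold change -0.83 ± 0.05 (SE), adjusted p = 1.6e-09), and MYBL2 from 2995, 3114 and 3092 to 1725, 1593 and 1538 (log2 fold change -0.92 ± 0.06 (SE), adjusted p = 1.51e-09). Their products activate the mitotic genes. CCNA2, the gene of cyclin A2, fell from 1458, 1539 and 1499 to 842, 849 and 767 (log2 fold change -0.87) and CCNB1, of cyclin B1, from 2752, 2981 and 2750.4 to 1872, 1844 and 1954 (log2 fold change -0.58). The kinase genes CDK1 (3092, 3237 and 2922 to 1978, 1755 and 2049) and PLK1 (2857, 2683 and 2898 to 1757, 1647 and 1652) had log2 fold changes of -0.68 and -0.74. TOP2A, topoisomerase II alpha, showed one of the smaller falls named here, from 3293, 3710.2 and 3639 to 2598, 2601 and 2525 (log2 fold change -0.46 ± 0.08 (SE), adjusted p = 0.000207).

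The promoters of these groups were searched for a pair of short elements. The lists were written from general knowledge of gene function, so their choice may not be independent of these elements. Here and below, the share of a list counts all its matched members, whether or not they changed. Such a share describes the list and not the response to the drug. Promoters were read from RefSeq (GRCh38.p14) as 250 bases before to 50 after each listed start, and 11643 of the 16341 tested genes matched. Shares of promoters here and below are shares of genes, and a gene with several listed starts counted if any of them held the letters. E2F letters were TTTGGCGC, TTTCCCGC, TTTCGCGC or TTTGCCGC on either strand. They stood in 6.58% of all tested promoters, in 22 of 46 DNA replication promoters (47.8%), in 15.8% of those called lower and in 3.63% of those called higher. The cell cycle homology region was searched as TTTGAA on either strand. It stood in 13.5% of all tested promoters, 32 of 44 spindle, kinetochore and condensin promoters (72.7%) and 15 of 23 mitotic kinase and checkpoint promoters (65.2%), but in 2.17% of the DNA replication promoters. The homology region stood in 24.2% of promoters called lower and 14.5% of those called higher. Over all genes that fell the shares were nearer to those of all tested promoters, at 9.36% for the E2F letters and 15.5% for the homology region. A match is a description of the letters and not a measured binding site. The stretches below, each 60 bases upstream of a start and written along the gene's strand, show the E2F letters in capitals for MCM6 (chr2:135876500-135876559, minus strand), POLA1 (chrX:24693751-24693810, plus strand) and TYMS (chr18:657584-657643, plus strand) and the cell cycle homology region in capitals for CDC20 (chr1:43358886-43358945, plus strand) and PLK1 (chr16:23678829-23678888, plus strand). They were picked among list members that fell and held a match, so they are examples alone. Their log2 fold changes were -0.62, -0.48, -0.91, -0.78 and -0.74 in that order.
MCM6: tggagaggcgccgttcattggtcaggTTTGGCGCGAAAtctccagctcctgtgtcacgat
POLA1: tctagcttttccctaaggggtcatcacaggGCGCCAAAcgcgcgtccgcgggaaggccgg
TYMS: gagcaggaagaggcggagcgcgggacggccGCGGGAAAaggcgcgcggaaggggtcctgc
CDC20: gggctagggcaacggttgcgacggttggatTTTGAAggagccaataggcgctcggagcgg
PLK1: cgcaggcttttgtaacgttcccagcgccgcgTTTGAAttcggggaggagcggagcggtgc
In MCM6 the capitals cover a pair of overlapping matches, one on each strand.

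The replication-dependent histone genes, which supply new nucleosomes in S phase, had the lowest median of the cell cycle lists. Of 56 tested, 49 fell and 0 rose, 24 were called lower, and the median log2 fold change was -1.001. Among all genes 17.0% fell and 0.869% were called lower. Their summed level ran from 205837 to 215921 normalised counts in vehicle and from 107414 to 109281 in AU2-94. As a share of all counts this was a mean 0.985% against 0.516%, without overlap between the groups (exact permutation p = 0.1, the smallest possible, adjusted p = 0.2). H1-5, a linker histone, had 10804, 11189 and 11465 in vehicle and 4672, 4691 and 4931 in AU2-94 (log2 fold change -1.23 ± 0.05 (SE), adjusted p = 1.06e-11). H2BC18 fell from 8604, 8261 and 9213 to 3759.7, 3937 and 3921 and H2AC16 from 3805, 3662 and 3820.3 to 1495, 1526 and 1517 (log2 fold changes -1.17 and -1.31). Core histone genes are near-identical copies of each other, so the value of a single copy is uncertain. How reads with several matches were counted is not given in the sources used here. The libraries were made from total RNA, which keeps transcripts that lack a poly(A) tail, as most of these do.

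The genes with the largest rises came from several pathways, with no member of the cell cycle lists among them. MYOD1, the muscle transcription factor, was listed at 0 in all 3 vehicle libraries and at 145, 157 and 206 normalised counts in AU2-94 (adjusted p = 9.38e-10), so no fold is given. PLOD2, a lysyl hydroxylase that modifies collagen, had 2.08, 4.28 and 3.52 in vehicle and 319, 299 and 352 in AU2-94. It stood near the floor in vehicle, and all treated libraries were far above that (log2 fold change 6.27 ± 0.33 (SE), adjusted p = 1.59e-10). OR51E1, an olfactory receptor gene expressed in prostate, had 4.79, 6.75 and 4.58 and 337, 336 and 302 (log2 fold change 5.69 ± 0.21 (SE), adjusted p = 4.49e-12). Its relative OR51E2 rose from 4.45, 0 and 3.51 to 13.1, 26 and 70.99 (log2 fold change 3.37, adjusted p = 0.00012). NDUFA4L2, a mitochondrial protein induced by low oxygen, went from 34.9, 26.98 and 25.9 to 1049, 1106 and 986 (log2 fold change 5.12 ± 0.36 (SE), adjusted p = 6.88e-09). In each of these genes the lowest treated library was above the highest vehicle library.

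ANGPT2, an angiopoietin that acts on blood vessels, had 10.7, 7.54 and 14.7 in vehicle and 354, 309 and 287 in AU2-94 (log2 fold change 4.77 ± 0.31 (SE), adjusted p = 2.66e-09). CYP1A1, the oxidase induced through the aryl hydrocarbon receptor, went from 6.24, 13.2 and 9.70 to 117, 126 and 137 (log2 fold change 3.63 ± 0.37 (SE), adjusted p = 6.06e-07). STC1, a secreted stanniocalcin, had 9, 13.1 and 19.8 and 76.9, 107 and 121 (log2 fold change 2.82, adjusted p = 1.47e-05). The groups were separate in all of them. TNS1, a protein of focal adhesions, rose from 20.5, 16.6 and 8.20 to 144, 78.5 and 121, and AKAP12, a scaffold for protein kinase A, from 48.1, 31.98 and 50.8 to 297, 236 and 255 (log2 fold changes 2.89 and 2.58). PPFIA4, a liprin, had 78.96, 23.4 and 85.8 against 539, 433 and 647, and VSTM2L 14.2, 17.2 and 13.9 against 123, 129 and 164 (log2 fold changes 3.27 and 3.11). The last of the 12, the gene ENSG00000260772, which the files name by identifier alone, was erratic. It was listed at 84.3, 0 and 54.3 in vehicle and 206, 112 and 112 in AU2-94, and its call (adjusted p = 0.0249) was lost without AU2-94 replicate 1 (adjusted p = 0.0823). Of the 227 genes that the naming rule picked, 45 share exon bases with a tested gene on the opposite strand, among them NDUFA4L2, ANGPT2, TMPRSS2, SLC16A3, CDK4, CCND1, FOXM1, CCNA2, TYMS, MYC, HIF1A and GAPDH, and 12 with one on the same strand, among them NDRG1, PFKFB4 and PGK1. Since the strand setting of the counting is not given, their counts may hold reads of both genes.

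**Figure D2:**
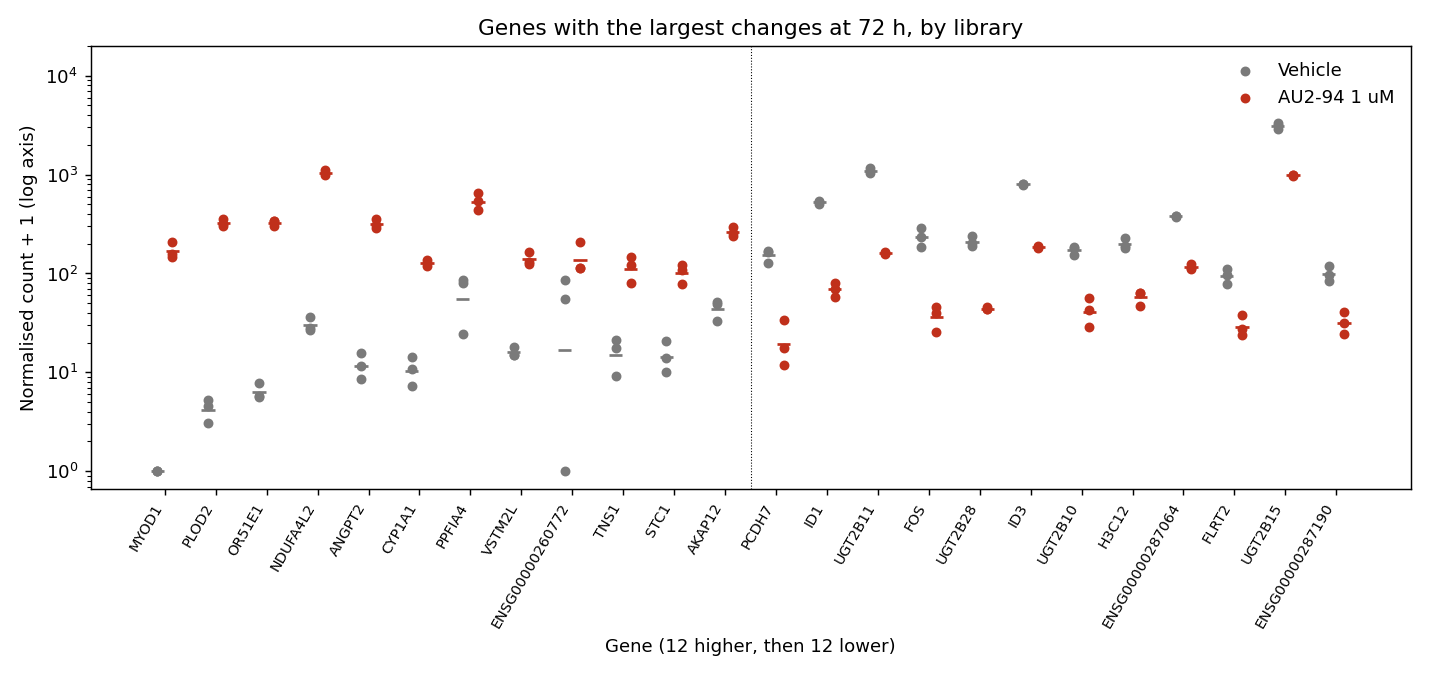
Normalised count + 1 (log axis) in each of the 3 vehicle (grey) and 3 AU2-94 (red) libraries at 72 h, for the 12 genes called higher and the 12 called lower with the largest log2 fold change and a mean of at least 50; short bars are means on the log2 scale. The vehicle libraries of ENSG00000260772 are spread from 0 upwards, and the groups are apart in all 24 genes.

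Hypoxia-inducible genes, the usual targets of the HIF transcription factors, rose in 20 of 34 cases against 15.4% of all genes, and 0 fell. The median was 0.62 and 9 were called, PLOD2 and NDUFA4L2 among them. BNIP3, a mitophagy receptor, had 2571, 2611 and 2751 in vehicle and 6382, 6288 and 6544 in AU2-94 (log2 fold change 1.28 ± 0.10 (SE), adjusted p = 1.25e-08). P4HA1, a prolyl hydroxylase of collagen, rose from 892, 904 and 972 to 1931, 1892 and 2079.8 (log2 fold change 1.09 ± 0.09 (SE), adjusted p = 5e-08), and LOX, lysyl oxidase, from 2.24, 5.06 and 2.74 to 21.8, 25.1 and 22.1 (log2 fold change 2.52). The vehicle values of LOX lay around the floor. Treated and vehicle libraries did not overlap in BNIP3, P4HA1 or LOX. PFKFB4, which sets the level of a glycolytic activator, had 221, 253 and 217 and 870.2, 849.7 and 827 (log2 fold change 1.88). VEGFA, the vascular growth factor, rose by 0.88 (1792, 1703 and 1792 to 3633, 3163 and 2965, adjusted p = 1.61e-07). HIF1A itself, which is controlled mainly as a protein, had 3736, 3051 and 3199 and 3746, 3335 and 3743 and did not pass the test (adjusted p = 0.188, and 0.0178 without vehicle replicate 1). Oxygen was not among the conditions the labels vary.

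Glycolysis genes rose in 11 of 19 cases and 1 fell, beside 15.4% and 17.0% of all genes, with a median of 0.23. With the GC and length correction 8 rose and 4 fell, with a median of 0.12. SLC16A3, the lactate exporter MCT4, went from 3.24, 5.85 and 4.66 to 48.2, 68.5 and 58.1 (log2 fold change 3.42 ± 0.44 (SE), adjusted p = 8.66e-06). ALDOC, an aldolase, rose from 674, 667 and 713 to 2074, 1912 and 2027 and ENO2, an enolase, from 93.3, 73.9 and 119.5 to 309, 236 and 239.6 (log2 fold changes 1.55 and 1.46). These were the called genes of the list. The abundant enzymes moved less. PGK1 had 4988, 5999.8 and 5670.3 and 10155, 9714 and 10193 (log2 fold change 0.86), LDHA 13593, 13671 and 12861 and 20286, 18832 and 20219 (log2 fold change 0.56), and GAPDH 53553, 54343 and 57089 and 54223, 55079 and 53905 (log2 fold change -0.02, adjusted p = 0.807, and 0.0349 with the GC and length correction). The isoform LDHB was the gene that fell.

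The letters ACGTG, the core of the element that HIF recognises, were searched on both strands after these results were known. They stood in 18 of 28 hypoxia-inducible promoters (64.3%) and 12 of 18 glycolysis promoters (66.7%), beside 31.8% of all tested promoters. The share was 31.0% in the promoters of genes called higher, and 59.5% in those of ribosome biogenesis genes, which mostly fell. As examples among the called genes, stretches upstream of the starts of PLOD2 (chr3:146161301-146161360, minus strand), BNIP3 (chr10:131982027-131982086, minus strand) and P4HA1 (chr10:73096923-73096982, minus strand) are written along the gene's strand with these letters, or their reverse complement, in capitals.
PLOD2: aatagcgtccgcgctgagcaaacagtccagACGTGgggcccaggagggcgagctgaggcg
BNIP3: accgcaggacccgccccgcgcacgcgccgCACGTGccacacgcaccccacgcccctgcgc
P4HA1: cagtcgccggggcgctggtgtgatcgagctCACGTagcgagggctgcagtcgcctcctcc
The capitals of BNIP3 read the same on both strands and so hold the letters on each.

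A minority of the androgen-induced genes rose, some of them by more than 2-fold. Of 59 tested, 23 rose and 5 fell, the median was 0.16, and 9 were called higher and 1 lower. Among all genes 15.4% rose, 17.0% fell, 3.51% were called higher and 0.869% lower. KLK3 had 20972, 20799 and 19802 normalised counts in vehicle and 48236, 46629.7 and 47444 in AU2-94. Every treated library was above every vehicle library (log2 fold change 1.21 ± 0.05 (SE), adjusted p = 4.49e-12). KLK2, the neighbouring kallikrein, rose from 2431, 2343 and 2239 to 6073, 6103 and 6214 (log2 fold change 1.39 ± 0.07 (SE), adjusted p = 4.34e-11). TMPRSS2, a membrane serine protease, had 5129, 4504 and 4205 and 14187, 14074 and 14014 (log2 fold change 1.62 ± 0.07 (SE), adjusted p = 1.06e-11). NDRG1, which is both androgen- and hypoxia-inducible, went from 798, 1038 and 1010.0 to 4718, 4693 and 4252 (log2 fold change 2.27), and the transcription factor MAF from 295, 268 and 221 to 985, 829.7 and 898 (log2 fold change 1.79). Other called genes were the calcium channel TRPM8 (267, 350.0 and 370.4 to 1339, 1088 and 1608, log2 fold change 2.02) and the BMP receptor BMPR1B (256, 260.4 and 241 to 725, 822 and 1029, log2 fold change 1.75). The count of 5 was 3 without AU2-94 replicate 2 or vehicle replicate 2 and with equal library totals, and 9 with the GC and length correction. The genes were RHOU, ACSL3, SPDEF, EAF2 and NCAPD3, the last a condensin subunit.

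In the same list FKBP5, a co-chaperone widely used as a readout of androgen response, had 3446, 3579 and 3299 in vehicle and 3071, 2822 and 3013 in AU2-94 and did not pass the test (log2 fold change -0.21 ± 0.10 (SE), adjusted p = 0.106), although it did when these groups alone were fitted (adjusted p = 0.0131). Among lineage factors and surface antigens, 8 of 20 rose and 1 fell, beside 15.4% and 17.0% of all genes, with a median of 0.12. With the GC and length correction 7 rose and 3 fell, with a median of 0.005, and after quantile normalisation 10 rose and 0 fell. FOLH1, the gene of prostate-specific membrane antigen, had 18259, 19106 and 19368 and 21757, 22353 and 21627 (log2 fold change 0.21 ± 0.03 (SE), adjusted p = 7.21e-05). The called members of that list were the receptors OR51E1 and OR51E2.

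The UGT2B genes, a family of glucuronidating enzymes of which some inactivate androgens, showed the lowest median of any list. All 5 UGT2B genes tested were called lower, with a median of -2.08, beside 0.869% of all genes. UGT2B15 had 2886, 3308 and 3168 in vehicle and 977, 991 and 984 in AU2-94 (log2 fold change -1.66 ± 0.08 (SE), adjusted p = 3.54e-11), and UGT2B17 3669, 4133 and 4070.2 and 1466, 1493 and 1484 (log2 fold change -1.42 ± 0.06 (SE), adjusted p = 1.35e-11). UGT2B11 went from 1078, 1172 and 1041 to 157, 163 and 159 (log2 fold change -2.77 ± 0.12 (SE), adjusted p = 1.16e-11), and no treated library overlapped the vehicle libraries in any of the 5. UGT2B28 and UGT2B10 fell from 201, 241 and 189.9 to 42.5, 44.6 and 42.6 and from 154, 179 and 184 to 55.1, 41.5 and 27.97 (log2 fold changes -2.25 and -2.08). These genes lie side by side on chromosome 4 and are close in sequence, so reads may be split between them. The sum over all 7 genes of the list, 5 of them tested, was 8003–9046 in vehicle and 2699–2744 in AU2-94. A split of reads between the genes leaves that sum unchanged, but a loss of reads with several matches would not.

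ID1, an inhibitor of differentiation that is a direct target of BMP signals, had 504, 540.1 and 529.5 in vehicle and 56.4, 69.5 and 79.7 in AU2-94 (log2 fold change -2.93 ± 0.30 (SE), adjusted p = 6.2e-07). ID3 went from 777, 798 and 811 to 183, 188 and 179 and ID2 from 232, 278 and 204 to 95.3, 73.02 and 77.97 (log2 fold changes -2.11 and -1.52, adjusted p = 2.97e-07 and 4.17e-05). In the list of ID genes and BMP or TGF-beta feedback genes, 6 of 13 fell and 1 rose, these 3 being the called ones. FOS, an immediate early transcription factor, had 182, 289 and 235 and 38.8, 44.9 and 24.9 (log2 fold change -2.68 ± 0.50 (SE), adjusted p = 0.000414). SPRY4, a feedback inhibitor of growth factor signalling, fell from 31.6, 30.6 and 38.7 to 6.20, 3.43 and 5.41 (log2 fold change -2.55), while DUSP6, a feedback phosphatase of ERK, rose by 1.75 at low counts and with overlapping groups (3.28, 7.61 and 4.21 to 33.8, 35.02 and 4.82, adjusted p = 0.0376). Of 27 immediate early genes, 7 rose and 6 fell, beside 15.4% and 17.0% of all genes. MYC was among those that rose (8204, 8299 and 8758 to 10536, 10346 and 10896, log2 fold change 0.33), and in the MYC network 4 of 12 rose and 1 fell. PCDH7, a protocadherin, had the lowest fold of the called genes with a mean of at least 50, with 165, 127 and 167 in vehicle and 16.6, 10.8 and 32.6 in AU2-94 (log2 fold change -2.997 ± 0.36 (SE), adjusted p = 4.6e-06). FLRT2, a cell surface protein, went from 96.4, 111 and 77.4 to 22.6, 26.2 and 37.2 (adjusted p = 0.0161), and this call was lost without AU2-94 replicate 1 or vehicle replicate 2 (adjusted p = 0.0579 and 0.0562).

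Many genes of amino acid supply and protein folding fell. In the ER stress and ATF4 list, 16 of 34 fell, 10 rose and 5 were called lower, beside 17.0%, 15.4% and 0.869% of all genes. SLC7A5, the large amino acid transporter LAT1, had 1015, 1072 and 1148 and 382, 397 and 405 (log2 fold change -1.45 ± 0.09 (SE), adjusted p = 2.66e-09). ASNS, asparagine synthetase, fell from 2609.6, 2495 and 2379.5 to 1119, 1237 and 975 and PSAT1, of serine synthesis, from 4235, 4511 and 4355 to 2121, 2168 and 2254 (log2 fold changes -1.17 and -1.001). The groups were apart in all of them. The transcription factor ATF4 fell from 7054, 6841 and 6525 to 4544, 4522 and 4651 (log2 fold change -0.57). Heat shock proteins fell in 14 of 18 cases, HSPA8 from 52387, 52804 and 47855 to 37664, 35478 and 39355 (log2 fold change -0.44), while 2 rose, the small heat shock genes CRYAB and HSPB8. Of 22 oxidative stress genes and metallothioneins, 15 fell and 2 rose. The quinone reductase NQO1 fell from 1976, 2191 and 1840.2 to 1035, 1051 and 1033 (log2 fold change -0.94), and the cystine carrier SLC7A11 from 4112, 4354 and 4411 to 2039, 2179 and 2042 (log2 fold change -1.04).

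Genes of ribosomes and of the respiratory chain that passed the test mostly fell, and by small amounts. Among all genes 17.0% fell and 15.4% rose. Ribosome biogenesis and RNA polymerase I genes fell in 34 of 49 cases and 1 rose (median -0.33), among them NPM1 (23469.7, 23759.6 and 22449 to 17905, 17292 and 17618, log2 fold change -0.40) and NCL (24213, 24964 and 25658 to 18404, 18715 and 18541, log2 fold change -0.43), both nucleolar proteins. Cytosolic ribosomal protein genes fell in 22 of 79 cases with a median of -0.10, and RPS2 went from 54522, 52093 and 51129 to 44369.9, 42441 and 40703 (log2 fold change -0.31). The count of 22 depended on the processing, being 12 after quantile normalisation, 36 after correcting for GC content and length, and 13 or 14 without AU2-94 replicate 1 or vehicle replicate 1. These genes took a mean 5.75% of counts in vehicle and 5.49% in AU2-94 (exact permutation p = 0.1, the smallest possible, adjusted p = 0.2). Of 62 nuclear genes of the respiratory chain, 30 fell and 0 rose (median -0.19); cytochrome c, CYCS, fell from 4704, 5134 and 4359.6 to 2751, 2765 and 2797 (log2 fold change -0.77). Of the 13 mitochondrially encoded genes, 1 rose, MT-CO1, by 0.13 (adjusted p = 0.00366, and 0.137 after quantile normalisation). Cholesterol synthesis genes fell in 13 of 24 cases and 1 rose.

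The remaining lists, in this and the next paragraph, were mixed. Their counts stand beside the 15.4% of all genes that rose and the 17.0% that fell, and some were near those shares. GDF15, a stress-induced cytokine that is both a p53 target and a secreted marker of senescence, had 3987, 4033 and 4198 in vehicle and 12445, 12156 and 12515 in AU2-94 (log2 fold change 1.60 ± 0.13 (SE), adjusted p = 2.66e-08). Of the 31 p53 target genes 7 rose and 11 fell. Of 11 senescence genes tested 3 rose and 6 fell, with IGFBP3, a binding protein for insulin-like growth factors, called lower (207, 259 and 203 to 82.2, 66.96 and 83.7, log2 fold change -1.51). Interferon response genes rose in 11 of 42 cases and fell in 5, the first count being 7 without AU2-94 replicate 1 and after quantile normalisation. The antiviral membrane protein IFITM2 rose by 1.27 (146, 119.7 and 182 to 347, 384 and 337) while CMPK2, a mitochondrial nucleotide kinase, fell from 42.2, 41.2 and 41.1 to 9.14, 10.1 and 9.95 (log2 fold change -1.99). Antigen presentation genes rose in 5 of 16 cases (8 with equal library totals) and 1 fell. Notch pathway genes had the same counts of 5 and 1 of 16, NOTCH3 rising by 0.80 (1478, 1521 and 1738 to 2865, 2672 and 2717).

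Extracellular matrix and adhesion genes rose in 10 of 32 cases and fell in 4; the collagen gene COL6A1 went from 3193, 3080.1 and 3422 to 5364, 5503 and 5204 (log2 fold change 0.73). Lysosome and autophagy genes rose in 11 of 41 cases and fell in 5 (3 without vehicle replicate 2), but rose in 7 and fell in 9 with the GC and length correction. Fatty acid synthesis and storage genes rose in 6 of 23 cases and fell in 8 (5 without AU2-94 replicate 2 or 3 or vehicle replicate 2, and after quantile normalisation). Polyamine and citrate genes rose in 3 and fell in 6 of 16 cases, the first count being 1 with the GC and length correction. BCL2 family genes rose in 2 and fell in 2 of 14 cases, close to the 15.4% and 17.0% of all genes. The second count was 1 without AU2-94 replicate 1 or vehicle replicate 2 and 4 with that correction. Of 29 neuroendocrine and neuronal genes, 10 were expressed highly enough to be tested and 3 rose: ENO2, the synaptic vesicle protein SYT4 (2996, 3562 and 3202 to 6904, 7764 and 7102, log2 fold change 1.16) and the tubulin TUBB3 (284, 284 and 297 to 404, 445 and 443, log2 fold change 0.58).

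**Figure D3:**
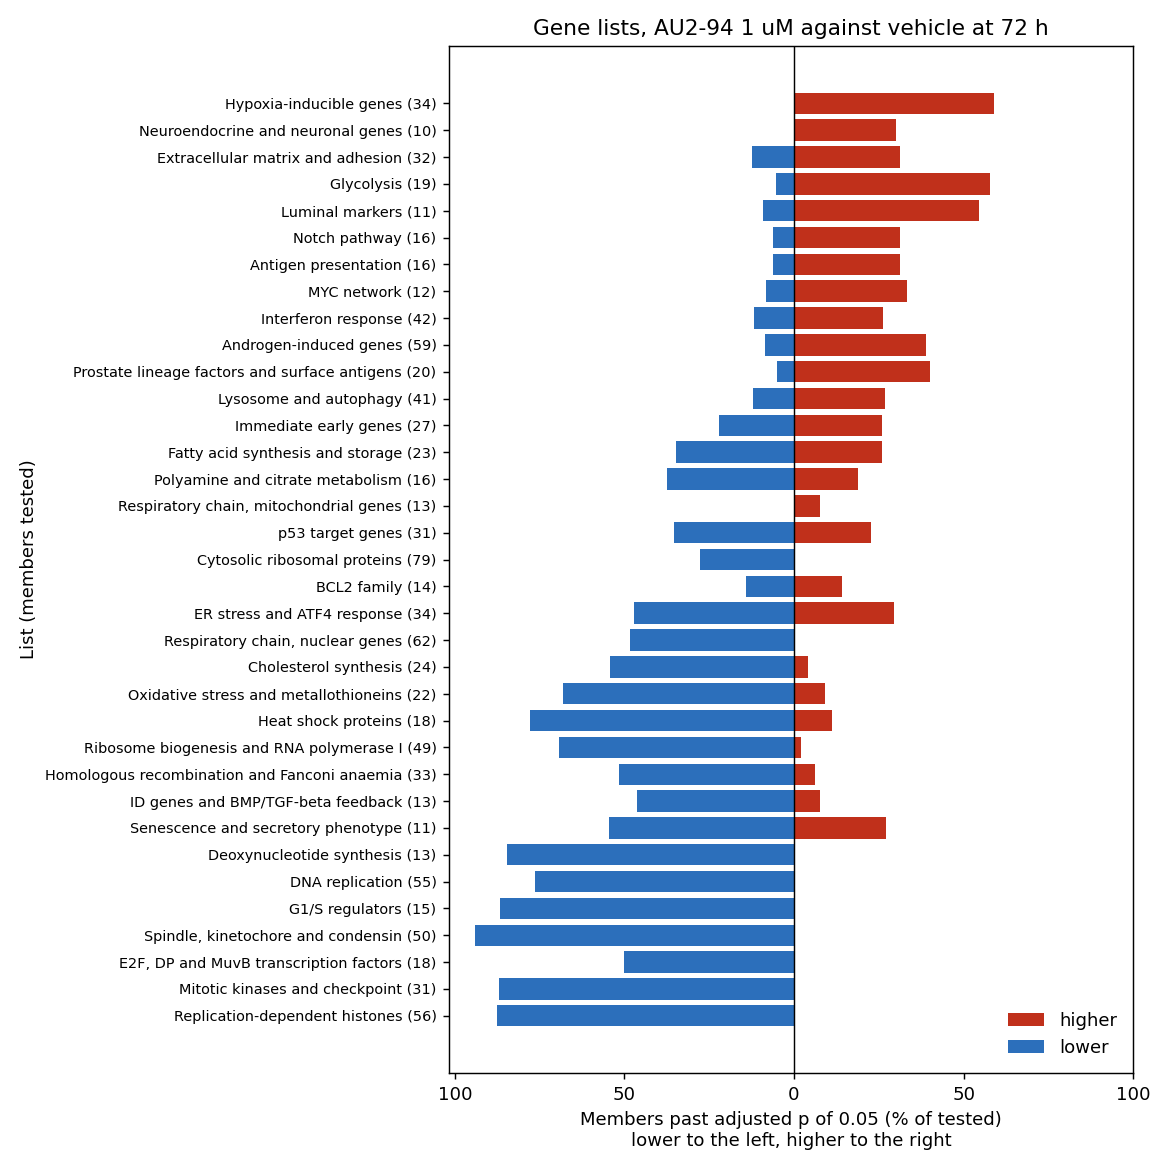
For 35 gene lists with at least 10 members tested, the share of tested members (%) that passed an adjusted p of 0.05 in AU2-94 1 µM over vehicle at 72 h, lower to the left (blue) and higher to the right (red), ordered by median log2 fold change. The DNA replication, G1/S, mitotic kinase and spindle lists extend to the left alone, up to 47 of 50 spindle genes, and the hypoxia list to the right alone, with 20 of 34.

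The same dose at 24 h was used to ask whether the effect changed with time; the 24 h and 72 h comparisons have separate vehicle libraries. The difference between the effects was tested in a fit of all 36 libraries on 16850 genes. The effect at 72 h was called higher than at 24 h for 487 genes (2.89%) and lower for 83 (0.493%), and by adjusted p alone for 1696 (10.1%) and 1944 (11.5%). The last counts were 2198 and 1242 with equal library totals, and 1108 and 3054 with the GC and length correction. Lower differences were 14.6% of those called, and 30.2% after quantile normalisation, where 154 were called lower. Of the 573 genes called higher at 72 h, 98 were also called higher at 24 h, and of the 142 called lower, 56 were called lower at 24 h. For all genes, 259 of the 16137 tested at 24 h were called higher and 387 lower. Missing the call at 24 h does not make a change particular to 72 h. The difference between the times was itself called higher in 163 of the 573 genes and lower in 24 of the 142.

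Mitotic genes were nearer to vehicle at 72 h than at 24 h. The difference was higher in 23 of 31 mitotic kinase and checkpoint genes (0 lower) and in 37 of 50 spindle, kinetochore and condensin genes (2 lower). Their median log2 fold changes were -1.29 and -1.44 at 24 h against -0.58 and -0.54 at 72 h. PLK1 had 2624, 2624 and 2524 in vehicle and 567, 567 and 665 in AU2-94 at 24 h, so its log2 fold change was -2.11 then and -0.74 at 72 h (difference 1.37 ± 0.13 (SE), adjusted p = 1.27e-08). MKI67, at 9181, 9371 and 8954 in vehicle and 2179.7, 2296 and 2469 in AU2-94 at 24 h, changed from -1.99 to -0.73 (adjusted p of the difference = 4.86e-10). Among 55 DNA replication genes the difference was higher in 12 and lower in 3 (8 lower with the GC and length correction, and 0 with equal library totals), and E2F1 had -0.60 at 24 h and -0.70 at 72 h (adjusted p = 0.546). For the 57 histone genes tested in that fit, 19 differences were higher and 0 lower.

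**Figure D4:**
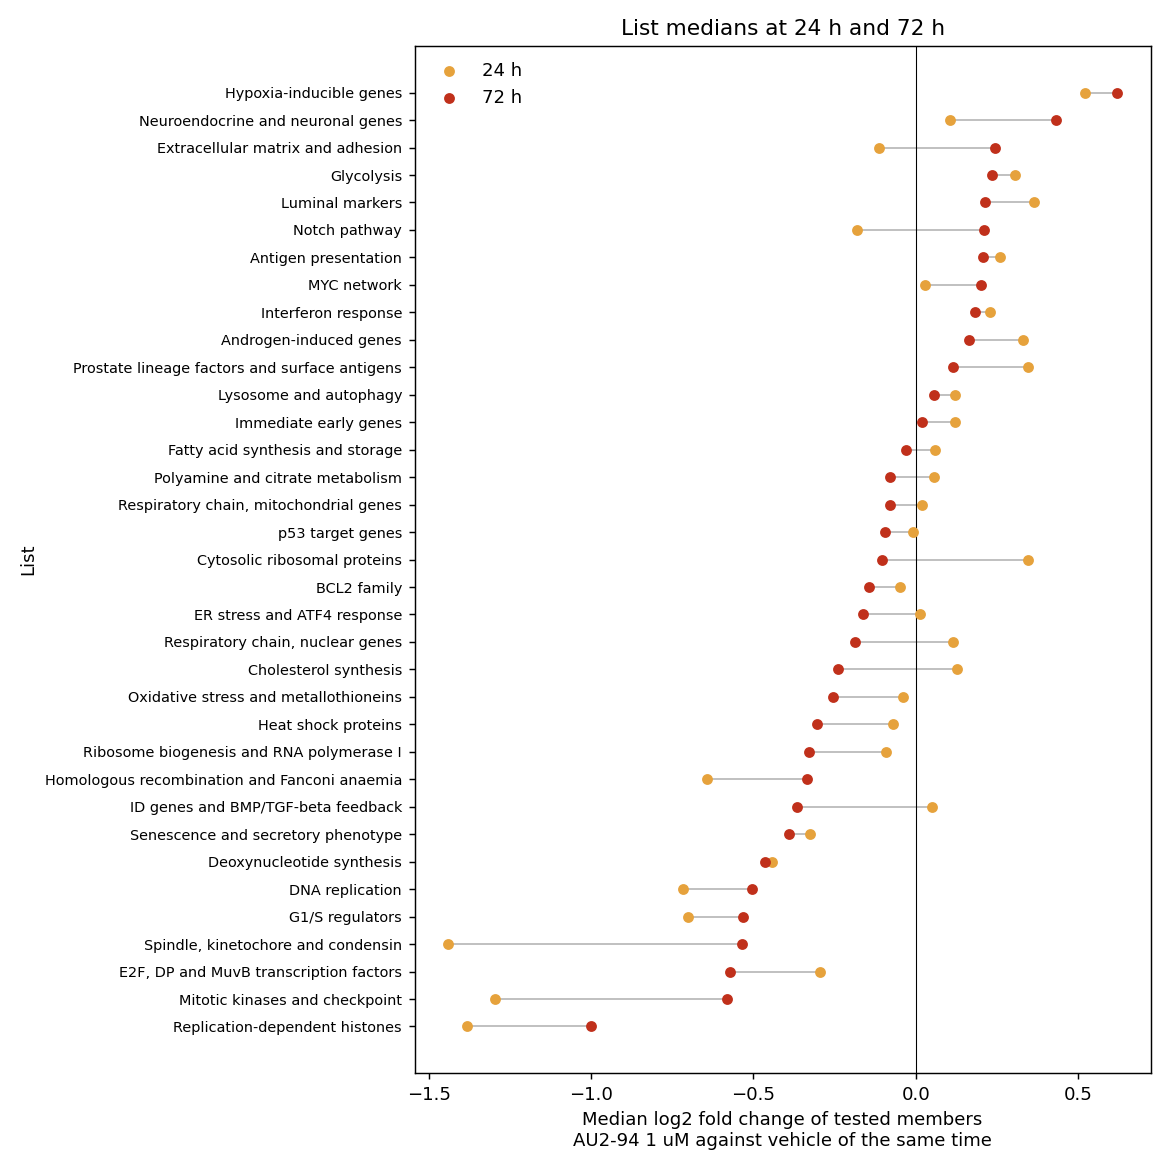
Median log2 fold change of the tested members of 35 gene lists, AU2-94 1 µM over the vehicle of the same time, at 24 h (orange) and 72 h (red). The spindle, kinetochore and condensin list moves from -1.44 to -0.54, and cytosolic ribosomal proteins from 0.35 to -0.10.

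Genes of protein synthesis and metabolism had lower effects at 72 h. Of 79 ribosomal protein genes, 78 rose at 24 h (median 0.35) and the difference was lower in 78, for example RPS2 at 0.21 and -0.31. The difference was also lower in 44 of 62 nuclear respiratory chain genes, 22 of 49 ribosome biogenesis genes and 16 of 24 cholesterol synthesis genes, the last with medians of 0.13 at 24 h and -0.24 at 72 h. Of 59 androgen-induced genes the difference was lower in 23 (15 with equal library totals) and higher in 11. KLK3, whose level was 23132, 24802 and 22731 in vehicle and 27722, 29772 and 29882 in AU2-94 at 24 h, went from 0.31 to 1.21 (difference 0.90 ± 0.07 (SE), adjusted p = 5.76e-10). FKBP5 moved the opposite way, from 0.34 to -0.21 (difference -0.55 ± 0.11 (SE), adjusted p = 0.000649). The hypoxia list had medians of 0.52 and 0.62, and PLOD2 had 5.28 and 6.27. UGT2B genes were lower than vehicle at both times, with medians of -2.84 and -2.08, and the difference was higher in 4 of the 6 tested in the fit of both times.

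The lowest differences were those of FOS and ID1. FOS was listed at 24.1, 7.02 and 15.1 in vehicle and 18.2, 96.1 and 58.9 in AU2-94 at 24 h, a log2 fold change of 1.70 with overlapping groups (adjusted p = 0.12), against -2.68 at 72 h (difference -4.39 ± 1.00 (SE), adjusted p = 0.00162). Its vehicle libraries also differed between the times, with 182, 289 and 235 at 72 h. ID1 had 560.2, 591 and 685 and 908, 833 and 861 at 24 h, where the treated libraries were the higher ones, and a difference of -3.44 ± 0.33 (SE), adjusted p = 1.27e-08. In GDF15, the 24 h values were 5126, 6170.2 and 6109 in vehicle and 2650.4, 9040.2 and 5288 in AU2-94 (log2 fold change -0.20), and the difference was 1.81 ± 0.50 (SE), adjusted p = 0.00859.

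**Figure D5:**
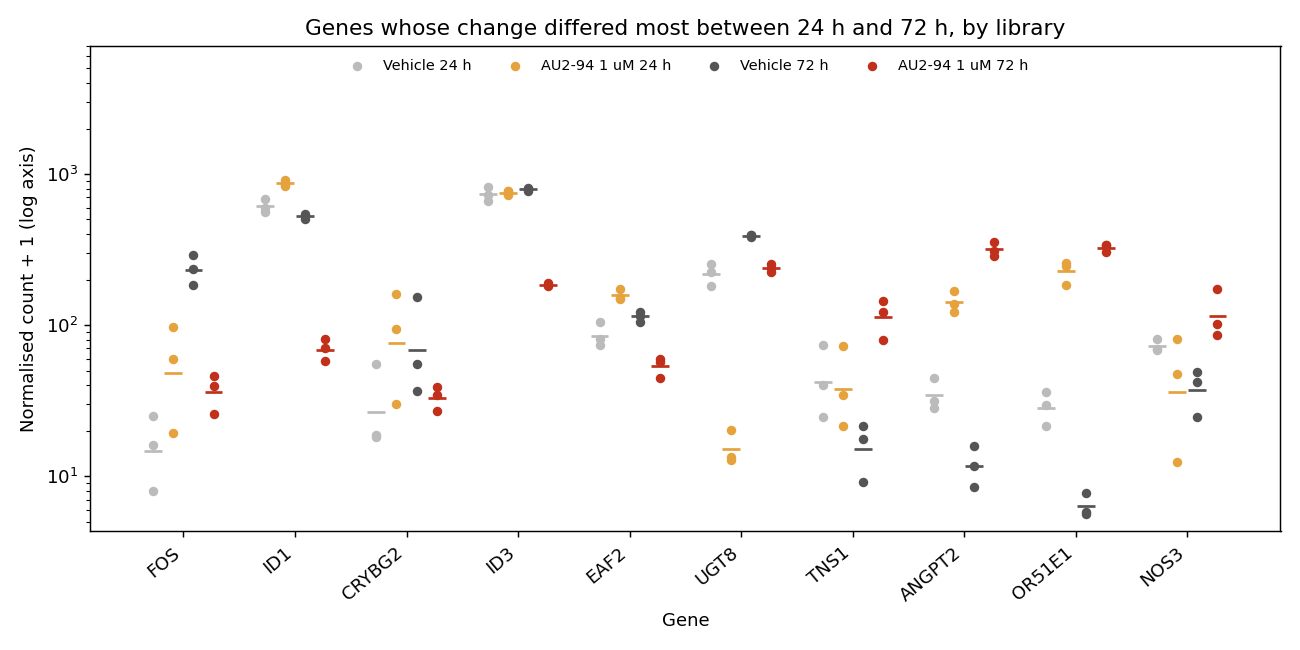
Normalised count + 1 (log axis) in each library of vehicle and AU2-94 1 µM at 24 h and 72 h, for the 5 genes with the lowest and the 5 with the highest difference of effect among those called; short bars are means on the log2 scale. ID1 and EAF2 are higher with AU2-94 at 24 h and lower at 72 h, and the groups of TNS1 and NOS3 overlap at 24 h and are apart at 72 h.

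Doubling the dose gave no call. Of 16341 genes, 0 (0.00%) were called between AU2-94 at 2 µM and at 1 µM at 72 h, with limma, 732 had an unadjusted p under 0.05, and the smallest adjusted p was 0.996. The median absolute difference over all genes was 0.0854 on the log2 scale. For KLK3, with 42553, 47315 and 45775 at 2 µM, the difference of 2 µM from 1 µM was -0.07 with a 95% interval of -0.17 to 0.03. The interval for MKI67 was -0.05 to 0.18 (6068, 5778 and 6235 at 2 µM), and for FOXM1 -0.04 to 0.18. For genes of low level it was wider, as for PLOD2 with -0.97 to 0.42 and for ID1 with -0.33 to 0.92. A p that misses the threshold does not show that the doses act alike.

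Atirmociclib, another CDK4-selective inhibitor, was compared at the matched dose of 1 µM and time of 72 h, as 1 pair of compounds. It was called higher than AU2-94 for 21 genes (0.129%) and lower for 73 (0.447%), and by adjusted p alone for 741 (4.53%) and 605 (3.70%). The balance of the last counts turned with the scaling, to 547 and 607 after quantile normalisation and 335 and 1063 with equal library totals. Lower genes were 77.7% of those called, and 66.3% after quantile normalisation; without atirmociclib replicate 2, 8 genes were called higher. Both comparisons with vehicle would share the vehicle libraries, so the compounds were tested directly. Cell cycle genes were lower with atirmociclib in 24 of 55 DNA replication, 35 of 50 spindle, 21 of 31 mitotic kinase and 42 of 56 histone genes, while 1 spindle and 1 histone gene were higher. MKI67 had 3154, 2993 and 2991 with atirmociclib, below the 5732, 5919.7 and 5618 with AU2-94 (difference -0.92 ± 0.06 (SE), adjusted p = 6.46e-09). H1-5 had 2020.2, 1908 and 1928 (difference -1.29 ± 0.05 (SE), adjusted p = 2.74e-11) and FOXM1 1415, 1366 and 1391 (difference -0.55 ± 0.05 (SE), adjusted p = 1.37e-06). The libraries of the compounds did not overlap for these genes.

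Some androgen-induced genes were higher with atirmociclib, 20 of 59 with 0 lower, but the counts were 10 and 3 after quantile normalisation and 9 and 4 with equal library totals. TMPRSS2 had 19815, 19897 and 20397 (difference from AU2-94 0.51 ± 0.07 (SE), adjusted p = 6.73e-05), and KLK3 had 51497, 53405 and 55194 (difference 0.17 ± 0.05 (SE), adjusted p = 0.0273). CYP1A1 was lower with atirmociclib, at 30.6, 39.2 and 37.2 against 117, 126 and 137 (difference -1.81 ± 0.37 (SE), adjusted p = 0.00388), as were THBS1, thrombospondin, at 40.7, 56.5 and 44.7 against 151, 182 and 246 (difference -1.99 ± 0.26 (SE), adjusted p = 4.28e-05) and FOXN4, a forkhead factor, at 30.1, 17.4 and 15.3 against 90.9, 104 and 101 (difference -2.24 ± 0.25 (SE), adjusted p = 8.31e-06). SPRY4 stood higher, at 18.8, 19.1 and 18.9 against 6.20, 3.43 and 5.41 (difference 1.76 ± 0.33 (SE), adjusted p = 0.00196). Of the hypoxia-inducible genes 5 of 34 were lower with atirmociclib (3 with the GC and length correction) and 0 higher. Of the 13 mitochondrially encoded genes 10 were higher, but 1 after quantile normalisation and 5 with equal library totals.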

How the data were processed

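Total RNA from LNCaP cells was sequenced as paired reads, and the authors aligned the reads to GRCh38 (hg38) with STAR 2.6.1d and used DESeq2, per the methods and the submitters' processing notes. The deposited table holds, per the labels and the values, the authors' normalised counts for 29872 genes, a signal that is not whole reads, so count models were not run. The read counter, annotation release, strand setting and exact normalisation are not given in the sources used here. Library totals of 20910659 to 21617499 normalised counts in the 6 libraries are set by the normalisation, so sequencing depth is unknown, and low values are the least precise. A gene at or under 3 normalised counts was taken to be at the floor, which covers counting error only.

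Groups came from the sample labels, and 0 columns lacked a labelled sample. A gene was tested if 3 or more of the fitted libraries reached 10 normalised counts. Tests were run in limma 3.58.1 (R 4.3.3) on log2 values with a pseudocount of 1, using eBayes with a mean-variance trend, and p-values were adjusted by Benjamini-Hochberg for each contrast separately. The 18 libraries of 6 groups at 72 h were fitted together, and all 36 libraries for the difference of effects between 72 h and 24 h. Shares of counts were compared with exact two-sided permutation tests in SciPy 1.17.1. The methods name 3 biological replicates for each treatment. Neither the methods nor the labels say whether these came from separate cultures, so p-values measure the spread between these libraries. Because the batch label of a library is its replicate number, equal numbers were taken to mark a shared batch, and a fit with the replicate number as a block was an alternative. Deviations from the group means correlated at -0.035 to 0.024 for the 3 pairs with the same number and at -0.047 to 0.039 for the 6 pairs with different numbers. The main results come from fits with no block.

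The 42 gene lists were written from general knowledge, and the members, lists and tests were chosen with earlier results of these data known. Lists are described by counts and medians, with no set test. Genes were named by a rule: the 12 called genes in each direction with the largest change and a mean of at least 50, up to 5 members per list with the smallest p, a set of 29 genes fixed whatever their values, and the 5 called genes in each direction with the largest difference in each other contrast. Named in addition, after their values were seen, were ACSL3, ASNS, BMPR1B, CDC45, CMPK2, CRYAB, DUSP6, HSPB8, IGFBP3, LDHB, LOX, NCAPD3, P4HA1, POLA1, RHOU, SPDEF and TRPM8. Genes on the Y chromosome, and some other named genes, are not reported here. Positions came from GENCODE release 44 and promoters from RefSeq (GRCh38.p14). The steps were tested on simulated data. Alternatives covered the pseudocount (0.5 and 5), the filter, the scaling, the replicate block, a GC and length correction (GC known for 16330 of 16341 genes), the libraries fitted, the trend and leaving out each library.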

Additional observations from a re-analysis of the deposited data

Results flagged for a closer look

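The effect of AU2-94 at 1 µM differed between 24 h and 72 h, by a test of the difference itself in the limma fit of all libraries, for the 5 named genes with the lowest and the 5 with the highest difference. The difference is the log2 fold change at 72 h minus that at 24 h.

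Among genes with lower effects at 72 h, the difference was -4.39 in FOS (adjusted p = 0.00162), -3.44 in ID1 (adjusted p = 1.27e-08) and -2.15 in ID3 (adjusted p = 9.12e-08). ID3 had 719.7, 663 and 820.4 in vehicle and 772, 723 and 765 in AU2-94 at 24 h, where the groups overlapped, and 777, 798 and 811 and 183, 188 and 179 at 72 h, where they were far apart. EAF2, an elongation factor partner in the androgen-induced list, had a difference of -1.99 (adjusted p = 7.24e-06), with 72.9, 79.4 and 103 in vehicle and 173, 150.1 and 147 in AU2-94 at 24 h and 114, 122 and 104 and 58.3, 43.6 and 56.4 at 72 h. CRYBG2 had a difference of -2.55 (adjusted p = 0.0183), which lost its call without AU2-94 24 h replicate 2 (adjusted p = 0.0689), vehicle 24 h replicate 1 or 2 (0.0538 and 0.0513) or vehicle 72 h replicate 1 (0.075).

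Among genes with higher effects at 72 h, UGT8, a ceramide galactosyltransferase, had a difference of 3.14 (adjusted p = 9.07e-07). Its level was 222, 253 and 182 in vehicle and 11.8, 12.4 and 19.3 in AU2-94 at 24 h, and 393, 392 and 380.0 and 223, 252 and 239 at 72 h, so it was below vehicle at both times and nearer to it at 72 h. The difference was 3.04 in TNS1 (adjusted p = 0.00151), 2.72 in ANGPT2 (adjusted p = 0.000909) and 2.69 in OR51E1 (adjusted p = 4.85e-07). In ANGPT2 and OR51E1 the vehicle libraries were also lower at 72 h, with 27.4, 43.7 and 30.6 and 35.1, 28.5 and 20.3 at 24 h against 10.7, 7.54 and 14.7 and 4.79, 6.75 and 4.58. NOS3, endothelial nitric oxide synthase, had a difference of 2.64 (adjusted p = 0.00396), with 67.8, 68.1 and 79.9 in vehicle and 11.4, 46.1 and 80.2 in AU2-94 at 24 h and 23.6, 41.2 and 47.7 and 84.5, 172 and 100.1 at 72 h. Seeding density differed between the times, and its part in these differences cannot be told apart from that of time.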

How the results depend on the processing

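With genes of a mean of at least 100 alone, which leaves fewer genes to test, 156 were called higher and 54 lower at 72 h, 5 and 39 for atirmociclib against AU2-94, and 220 and 30 for the difference between times. Quantile normalisation gave 370 and 224 at 72 h and 154 lower for the difference between times, and the cause was not tested. Between the doses, 1 gene was called lower when only those groups were fitted. Leaving out each library gave 516 to 560 higher and 127 to 149 lower at 72 h, 8 to 22 and 54 to 61 for atirmociclib, 423 to 535 and 70 to 88 for the difference between times, and 0 for the doses. With the replicate block, 578 were called higher and 142 lower at 72 h, 20 and 73 for atirmociclib and 486 and 81 for the difference between times, and RBL1 passed the test (adjusted p = 0.0362). MLXIP, of the MYC network, turned from 0.16 to -0.00886 with the GC and length correction, alone and with the replicate block, and the cause was not tested. Of the list medians for AU2-94 against vehicle at 72 h, those of fatty acid and immediate early genes changed sign under a scaling. In some lists, counts of 0 to 2 members moved by 1 or 2 when 1 library was left out. Over all named genes and settings, counted as 1 result for each gene, contrast and setting, 56 results lost an adjusted p of 0.05, 30 gained it and 4122 kept their side of it. A change of direction was counted only for results past 0.05 in the main fit, and 2 of those changed direction. Depth is unknown, and limits low genes most.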
